A study of Rattus norvegicus with 8 samples.

Results

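The genes described here encode the proteins of the mitochondrial respiratory chain and ATP synthase, in lung tissue of rats (Rattus norvegicus). They were taken by gene symbol: the Nduf, Uqcr, Cox4 to Cox8 and Atp5 families, Sdha to Sdhd, Cyc1, Cycs and the mitochondrial Mt-nd, Mt-co, Mt-cyb and Mt-atp genes. Of 32623 genes in the table, 113 rows had such a name, 112 of these were protein-coding and, with 1 row kept per symbol, 108 genes were members. Of these, 95 are encoded in the nucleus and 13 in the mitochondrial genome. By complex there were 42 members in complex I, 4 in complex II, 10 in complex III, 24 in complex IV and 19 in complex V, besides cytochrome c (Cycs) and 8 Ndufaf factors, which help to assemble complex I but do not stay in it. The nuclear members were spread over 20 chromosomes, with at most 15 on 1 chromosome.

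Polyadenylated RNA of whole lung was sequenced in 2 groups of 4 libraries. The first group came from rats treated with MCT (monocrotaline), a plant alkaloid that injures pulmonary vessels and is used to model pulmonary hypertension. The second was the control group. The labels name no strain, dose, age or time after treatment. They also do not say whether each library is a separate animal, so the p-values reflect only how much the libraries vary, which may be technical in part.

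The respiratory chain passes electrons from NADH and succinate through complexes I to IV to oxygen and pumps protons across the inner mitochondrial membrane, and complex V uses the returning protons to make ATP. Complexes I, III, IV and V are built from subunits of 2 genomes: the mitochondrial DNA supplies hydrophobic core subunits, while the nucleus supplies the remaining core subunits and all accessory ones, which are made in the cytosol and imported. Complex II is wholly nuclear. In mammals, promoters of nuclear subunit genes often carry sites for the factors NRF1, GABP and YY1, and the coactivator PGC-1alpha (Ppargc1a) acts through several such factors.

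Values are FPKM, read fragments scaled to transcript length and library size. Comparisons of level between genes are approximate, above all for very short transcripts. Differences are log2 fold changes of MCT over control from edgeR's quasi-likelihood test. A gene is called higher or lower at an adjusted p under 0.05 over all 16715 genes tested. Depth was about 11.3 to 18.1 M read pairs per library in MCT and 10.8 to 14.8 M in control. MCT 1 stood apart from the other MCT libraries in its summed cardiac myocyte markers (176 FPKM, against 36.3 to 64.0 in the other MCT and 40.6 to 77.9 in the control libraries), and MCT 1 and control 1 were highest of their groups in ciliated cell markers. Counts are therefore also given with these 2 libraries left out.

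Respiratory chain genes were more often higher than lower in MCT lungs. Of 105 members tested, 38 were called higher (36.2%) and 0 lower, where 11.0% of all genes tested were called higher and 9.45% lower. At an unadjusted p under 0.05, 2 members were lower (Sdha and Cox7a1), DESeq2 called 1 lower (Sdha; 12.2% of all genes lower, 13.1% higher) and limma on log2(FPKM + 0.5) called 0 (9.89% of all genes lower, 12.2% higher). The log2 fold change was positive for 96 of the 105, with a median of 0.28 against 0.03 over all genes tested. The other 3 members, Cox6c-ps1, Cox7b2 and Cox8c, were listed at 0 in every library. MCT values lay above all control values for 44 members (13.3% of all genes tested did so) and below them for 2 (11.7% of all genes).

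The count depended on single libraries. It was 23 without MCT 2 (7.02% of all genes higher), 25 without MCT 3 (7.39%), 21 without control 2 (7.65%), 23 without control 3 (8.91%) and 24 without control 4 (8.11%). Without MCT 1, MCT 4 or control 1 it was 35, 32 and 40, beside 11.5%, 7.93% and 9.51% of all genes. With both control 1 and MCT 1 left out, 41 members were called higher (10.8% of all genes). Of the 38 called members, 21 remained called when each library was left out in turn, and 17 lost the call at least once. A set of 19 members was called higher under all 21 alternatives, and the detailed values below come mostly from it: Ndufa2, Ndufa11, Ndufa12, Ndufb4, Ndufs5, Ndufv2, Uqcrq, Cox5a, Cox6c, Cox7b, Ndufa4, Cycs, Atp5f1e, Atp5if1, Atp5mc1, Atp5me, Atp5mf, Atp5mg and Atp5pb.

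**Figure D1:**
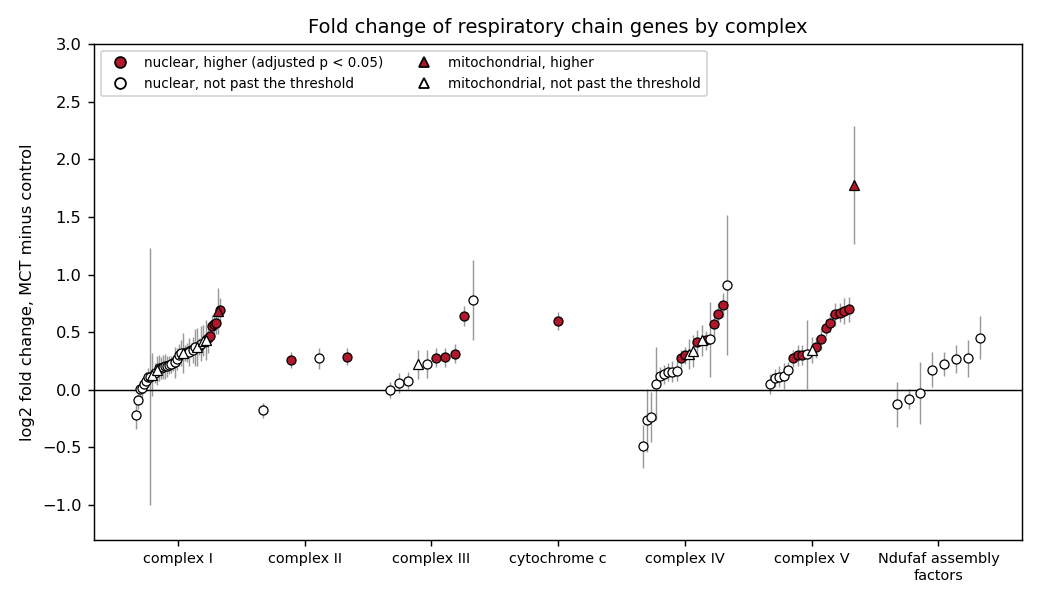
Log2 fold change of each tested member, MCT minus control (vertical axis), sorted within its complex (horizontal axis). Points are edgeR estimates, lines are ± 1 SE, circles are nuclear and triangles mitochondrial genes, and filled symbols are the 38 members called higher. Complex V holds 12 of them among 19 members. The Ndufaf factors hold 0 of 8, near the 11.0% of all genes tested that were called higher. The widest error is that of Ndufa1, which was listed at 0 in MCT 2.

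Marker genes of several cell types differed between the groups. In bulk tissue, fewer cells of a type and less RNA per cell cannot be told apart. Of 11 macrophage markers tested, 9 were higher, with summed FPKM of 730 to 1200 in MCT and 314 to 494 in control. All 6 mast cell markers were higher (195 to 927 FPKM in MCT, 8.56 to 17.6 in control), as were 8 of 9 markers of dividing cells (89.9 to 150 in MCT, 19.4 to 50.2 in control). Of 8 alveolar type 2 cell markers, 5 were lower and 1 higher (20613 to 26692 FPKM in MCT, 28679 to 37145 in control). Of 7 endothelial markers 1 was higher and 1 lower, and their sums did not overlap (292 to 388 FPKM in MCT, 451 to 506 in control). Some of these lists were thus higher and others lower in MCT, while the respiratory chain genes were mostly higher. The part of the lists in the results was not tested. Skeletal muscle markers summed to 11.1 to 22.7 FPKM in MCT and 13.1 to 19.8 in control, with Myh4 near 0 in every library, and no member of that list was called. The 5 lung identity markers (Sftpc, Ager, Scgb1a1, Nkx2-1 and Hopx) summed to 24577 to 47732 FPKM in MCT and 33555 to 44126 in control. Of the 5, 0 were called higher and 1 lower, and a sum does not give the level of each.

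Members of each of the complexes I to V were called higher. The count was 12 of 42 in complex I, 2 of 4 in complex II and 4 of 10 in complex III. It was 7 of 21 in complex IV and 12 of 19 in complex V. These counts are to be read against the 11.0% of all genes tested that were called higher. The Ndufaf factors had 0 of 8, near that share. The median log2 fold changes lay closer together, at 0.29 for complex I, 0.27 for complex II, 0.25 for complex III, 0.30 for complex IV and 0.34 for complex V. The complexes differ in the length and level of their transcripts as well as in these counts, and no test between complexes was made. Leaving out 1 library moved some of these counts: complex III had 1 without MCT 2, MCT 3, MCT 4, control 2, control 3 or control 4, complex IV had 4 without control 2, and complex V had 7 without control 2 or control 3. In complex II the count was 1 without MCT 3 and 0 without MCT 2, MCT 4, control 2, control 3 or control 4. In these fits 7.02% to 8.91% of all genes were higher, so 1 of 10 or 0 of 4 is near that share. When genes were sorted by their place in the complex, 26 of 55 nuclear accessory subunits (47.3%) and 8 of 21 nuclear core subunits (38.1%) were called. Their median log2 fold changes were 0.30 and 0.22. This sorting was made after the values were seen, and the accessory genes had shorter transcripts (median 560 bases, against 1148 for core genes).

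Complex I oxidises NADH and passes the electrons to ubiquinone. Of its subunits, 9 of 28 accessory (32.1%), 2 of 7 nuclear core (28.6%) and 1 of 7 mitochondrial (14.3%) were called higher. Over all genes tested the share was 11.0%. Ndufa2, an accessory subunit with a thioredoxin-like fold (ENSRNOG00000017571, Rnor_6.0 chr18:29585671-29587760), was at 79.5, 72.4, 71.8 and 65.5 FPKM in MCT 1 to MCT 4, against 46.4, 45.2, 47.6 and 39.4 in control 1 to control 4. Every MCT library was above every control library, by 0.69 on the log2 scale (SE 0.10, adjusted p = 0.00219). Ndufb4, an accessory subunit of the membrane arm, was at 122, 137, 126 and 130 FPKM in MCT, against 99.0, 93.5, 88.8 and 89.8 in control (0.47, SE 0.07, adjusted p = 0.00268), again with no overlap. Ndufa11, an accessory membrane subunit, was at 87.1, 109, 115 and 104 FPKM in MCT, against 73.9, 70.6, 66.7 and 65.2 in control (0.58, SE 0.09), with MCT 1 the lowest of the MCT libraries and still above control.

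Among the core subunits of complex I, Ndufv2, an iron-sulfur protein of the NADH-binding module, was at 89.6 ± 1.62 FPKM in MCT and 70.4 ± 2.62 in control (SD, n = 4 each; 0.35, SE 0.06, adjusted p = 0.00513). Its partner Ndufv1, which binds NADH and flavin, was at 70.3 ± 3.27 FPKM in MCT and 69.9 ± 4.04 in control, a log2 difference of 0.01 (SE 0.07). These neighbours in the same module thus had different values, although the difference between them was not tested. Ndufs1, the largest iron-sulfur subunit, was called (0.23, SE 0.07, adjusted p = 0.0464), but the call was lost when any library except MCT 1 was left out. Ndufs7, another core iron-sulfur subunit, was at 55.7 ± 3.57 FPKM in MCT and 64.8 ± 10.4 in control (-0.22, SE 0.12, adjusted p = 0.224).

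The small accessory gene Ndufa1 had the least consistent values. It was at 99.7, 0, 150 and 58.8 FPKM in MCT, against 54.4, 85.2, 80.0 and 63.3 in control, so that MCT 2 was listed at 0 while another MCT library held the highest value of all 8. Its transcript length, recovered from the table as 213 bases, was the shortest among the tested nuclear members.

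Complex II, succinate dehydrogenase, also works in the tricarboxylic acid cycle and has no mitochondrially encoded subunit. Its membrane anchors were higher: Sdhc was at 102, 104, 100 and 108 FPKM in MCT, against 92.1, 85.0, 81.4 and 80.3 in control (0.29, SE 0.07, adjusted p = 0.0224). Sdhd was at 75.2, 83.2, 78.5 and 81.8 FPKM in MCT, against 73.2, 65.3, 62.3 and 65.2 in control (0.26, SE 0.07, adjusted p = 0.0351). In both genes the groups did not overlap, though control 1 came close to the lowest MCT library for Sdhd. Both calls were lost without MCT 2, MCT 4, control 2, control 3 or control 4, and that of Sdhd also without MCT 3, with log2 fold changes of 0.23 to 0.30.

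Sdha, the flavoprotein that oxidises succinate (ENSRNOG00000013331, chr1:31545631-31570601), went the other way. It was at 73.9, 78.0, 83.1 and 85.7 FPKM in MCT, against 92.2, 89.2, 88.2 and 92.5 in control, with every MCT library below every control library. The difference of -0.18 (SE 0.07) did not pass edgeR's threshold (adjusted p = 0.0933). Sdhb, the iron-sulfur subunit between Sdha and the membrane, was at 98.3, 120, 124 and 122 FPKM in MCT, against 93.7, 101, 98.5 and 90.2 in control (0.27, SE 0.09, adjusted p = 0.0569). Only MCT 1 lay within the control range for Sdhb, and the gene passed the threshold when MCT 1 was left out (0.34).

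Complex III passes electrons from ubiquinol to cytochrome c. Its subunit Uqcrq, which sits beside cytochrome b (ENSRNOG00000048174, chr10:38779132-38782419), had the clearest difference of the complex. It was at 46.4, 48.7, 45.7 and 46.1 FPKM in MCT, against 33.8, 28.7, 31.0 and 26.3 in control (0.64, SE 0.09, adjusted p = 0.00180), with a wide gap between the groups. Uqcrfs1, the Rieske iron-sulfur protein, was at 80.8, 81.2, 81.1 and 87.7 FPKM in MCT, against 76.0, 64.3, 62.8 and 62.8 in control (0.31, SE 0.08, adjusted p = 0.0261). Its groups did not overlap, but the call was lost when any library except MCT 1 or control 1 was left out. Cyc1, the cytochrome c1 that hands the electron on, was at 85.4 ± 1.36 FPKM in MCT and 80.6 ± 6.35 in control (0.08, SE 0.08). Uqcrc1 and Uqcrc2, core proteins by name but counted above among the accessory subunits, differed by 0.06 and 0.00.

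Uqcrb and Uqcr11 were also called (both 0.28). Uqcrb lost the call in all 8 fits without 1 library, and Uqcr11 in 6 of them. The Uqcrb row used here, the one with the higher mean, lies on chr1:94718402-94718876 and is 475 bases long, equal to the span of its locus. It shares all 475 bases with an annotated pseudogene on the same strand. A further row of that symbol on chromosome 7 was at 22.9 ± 3.47 FPKM in MCT and 17.1 ± 1.44 in control. By edgeR that row was not called (0.42, SE 0.14, adjusted p = 0.0569). The split of reads between such copies is uncertain. Uqcr10 was at 82.1, 70.1, 93.5 and 64.6 FPKM in MCT, against 48.1, 52.2, 62.6 and 16.7 in control, where the low value of control 4 gave a wide error (0.78, SE 0.35, adjusted p = 0.156).

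Cycs encodes cytochrome c, the soluble carrier between complexes III and IV, which also acts in apoptosis once released from mitochondria (ENSRNOG00000010452, chr4:80331227-80333326). It was at 73.8, 74.0, 68.0 and 68.0 FPKM in MCT, against 44.5, 49.8, 44.3 and 48.3 in control. The groups were far apart, with a log2 fold change of 0.60 (SE 0.08, adjusted p = 0.00133). Mammalian genomes hold many processed copies of this gene, and the sources used here do not give how reads that match several copies were counted.

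Complex IV reduces oxygen to water, with 3 mitochondrial core subunits and a set of nuclear ones. Of 12 ubiquitous nuclear subunits 7 were called higher (58.3%, against 11.0% of all genes tested). Of 6 tested tissue-restricted isoforms 0 were called by edgeR, DESeq2 or limma. At an unadjusted p under 0.05, 0 of these isoforms were higher and 1 lower (Cox7a1). Cox7b, a small membrane subunit (ENSRNOG00000054689, chrX:77065397-77071676), was at 125, 121, 116 and 107 FPKM in MCT, against 82.6, 60.4, 71.0 and 68.0 in control (0.74, SE 0.10, adjusted p = 0.00175), the largest difference among the called nuclear members. Cox6c, a membrane subunit, was at 244, 223, 217 and 188 FPKM in MCT, against 148, 127, 146 and 133 in control (0.66, SE 0.10, adjusted p = 0.00232). In both genes MCT 1 was highest, control 1 was the highest control library, and the groups stayed apart.

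Cox5a, a subunit on the matrix side, was at 157 ± 12.4 FPKM in MCT and 117 ± 3.05 in control (0.43, SE 0.08), and Ndufa4, once assigned to complex I and now placed in complex IV, at 120 ± 14.9 in MCT and 80.6 ± 9.94 in control (0.57, SE 0.12). Of the 6 most abundant nuclear subunits of the complex, Cox6c and Cox7c were called and the other 4 were not. Cox7c, a small membrane subunit, was at 261 ± 35.8 FPKM in MCT and 196 ± 14.3 in control and was called (0.41, SE 0.11, adjusted p = 0.0257), a call lost without MCT 3, control 2, control 3 or control 4 and with the length trend described below removed. Cox4i1, the largest nuclear subunit, was at 331 ± 10.8 FPKM in MCT and 302 ± 28.3 in control (0.13, SE 0.08), and Cox6a1 at 461 ± 26.4 in MCT and 424 ± 34.0 in control (0.12, SE 0.08). Cox8a, a small membrane subunit, was at 265 ± 11.5 FPKM in MCT and 237 ± 25.8 in control (0.16, SE 0.09), and Cox5b at 201 ± 3.64 in MCT and 180 ± 16.0 in control (0.15, SE 0.08). Cox6b1, on the intermembrane side, was called at 0.27 (SE 0.08), a call lost without MCT 2, MCT 3, control 2, control 3 or control 4.

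Complex V, the ATP synthase, consists of a catalytic head in the matrix, a rotating ring of c subunits in the membrane, a peripheral stalk and small membrane subunits that join complexes into dimers. Of the 5 head subunits 1 was called higher, of 3 genes for the c ring 2, of 4 stalk subunits 4, and of 4 small membrane subunits 3. Over all genes tested the share called higher was 11.0%. The small membrane gene not called was Atp5md (0.31, SE 0.30). Its row is 308 bases long, equal to the span of its locus, and lies wholly within Wnk4 on the other strand. Atp5mg, the membrane subunit g (ENSRNOG00000028884, chr8:49220443-49227273), had the smallest p of all members. It was at 223, 217, 243 and 202 FPKM in MCT, against 150, 127, 144 and 134 in control (0.67, SE 0.08, adjusted p = 0.000949). Atp5mf, subunit f, was at 210, 208, 228 and 194 FPKM in MCT, against 156, 137, 142 and 142 in control (0.54, SE 0.07, adjusted p = 0.00152). Neither gene showed any overlap between the groups, and MCT 4 was the lowest MCT library in both. Atp5me, subunit e, was at 162 ± 20.4 FPKM in MCT and 103 ± 1.11 in control (0.65, SE 0.10).

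In the head of complex V the alpha and beta subunits stayed close to control. Atp5f1b, the catalytic beta subunit, was the most abundant nuclear member, at 418, 470, 500 and 520 FPKM in MCT, against 465, 453, 401 and 438 in control (0.11, SE 0.09, adjusted p = 0.416), with overlapping groups. Atp5f1a, the alpha subunit, was at 209 ± 16.3 FPKM in MCT and 194 ± 9.75 in control (0.10, SE 0.08). Atp5f1e, the epsilon subunit, was by contrast at 348, 370, 404 and 373 FPKM in MCT, against 281, 236, 247 and 233 in control (0.58, SE 0.08, adjusted p = 0.00166), with no overlap. All these subunits belong to the same head.

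The genes for the c ring encode the same mature protein and differed among themselves. Atp5mc1 was at 111 ± 7.11 FPKM in MCT and 69.3 ± 9.77 in control (0.68, SE 0.11), Atp5mc3 at 189 ± 5.78 in MCT and 156 ± 10.4 in control (0.27, SE 0.08), and Atp5mc2, the most abundant of them, at 328 ± 21.4 in MCT and 316 ± 32.5 in control (0.05, SE 0.09). The call of Atp5mc3 was lost when any library except MCT 3 or control 1 was left out. Atp5if1 encodes IF1, a protein that inhibits the ATP-splitting reaction of the complex. It was at 130, 125, 142 and 109 FPKM in MCT, against 79.9, 73.8, 89.1 and 69.3 in control (0.70, SE 0.11, adjusted p = 0.00272), and its groups did not overlap. In the stalk, Atp5pb, subunit b, was at 33.6 ± 3.44 FPKM in MCT and 24.7 ± 2.15 in control (0.44, SE 0.09). The other stalk genes Atp5pd, Atp5pf and Atp5po differed by 0.30 to 0.37, and each lost its call without control 2 and also without control 3.

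**Figure D2:**
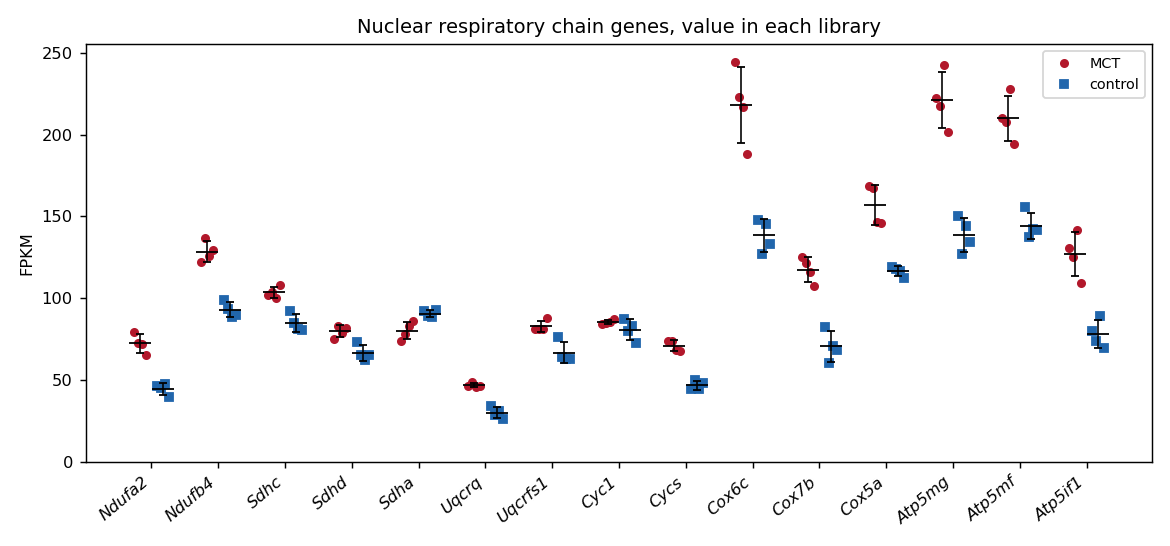
FPKM of 15 nuclear members in each library (vertical axis from 0), with MCT as circles left of control as squares, the mean as a bar and ± 1 SD as whiskers (n = 4 each). The groups lie apart for Ndufa2, Uqcrq, Cycs, Cox6c, Cox7b and the complex V genes, overlap for Cyc1, and stand in the opposite order for Sdha.

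Promoter sequence is shown for 5 genes that span these patterns: 4 of the members called under all alternatives, each from another complex or the carrier (Ndufa11, Uqcrq, Atp5mf and Cycs), and Sdha, whose values were lower in all MCT libraries. They were chosen after the values were seen. Each window runs from 250 bases before to 50 bases after the annotated start, read 5′ to 3′ on the gene's strand, from RefSeq on the build GRCr8. Capitals mark matches, on either strand, to the motifs searched: GCGCA and GCGC with any 1 base between them for NRF1, CCGGAAGT for GABP and other ETS factors, and AAGATGGCG for YY1.
Ndufa11: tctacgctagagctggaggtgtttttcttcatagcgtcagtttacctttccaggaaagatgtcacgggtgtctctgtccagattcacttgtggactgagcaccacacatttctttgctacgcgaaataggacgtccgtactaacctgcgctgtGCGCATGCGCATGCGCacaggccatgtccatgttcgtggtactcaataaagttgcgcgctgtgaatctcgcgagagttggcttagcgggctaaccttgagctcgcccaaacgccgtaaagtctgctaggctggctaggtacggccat
Uqcrq: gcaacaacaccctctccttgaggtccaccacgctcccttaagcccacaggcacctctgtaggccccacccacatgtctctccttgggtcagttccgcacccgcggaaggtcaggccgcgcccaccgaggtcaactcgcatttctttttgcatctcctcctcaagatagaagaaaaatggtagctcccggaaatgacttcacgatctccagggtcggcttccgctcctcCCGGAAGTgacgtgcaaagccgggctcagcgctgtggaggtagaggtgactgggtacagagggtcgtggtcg
Atp5mf: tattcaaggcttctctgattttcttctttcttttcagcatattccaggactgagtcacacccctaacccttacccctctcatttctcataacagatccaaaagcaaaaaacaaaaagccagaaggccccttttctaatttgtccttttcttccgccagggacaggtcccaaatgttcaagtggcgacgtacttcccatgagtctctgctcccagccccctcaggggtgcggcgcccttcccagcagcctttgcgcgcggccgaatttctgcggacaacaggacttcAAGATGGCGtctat
Cycs: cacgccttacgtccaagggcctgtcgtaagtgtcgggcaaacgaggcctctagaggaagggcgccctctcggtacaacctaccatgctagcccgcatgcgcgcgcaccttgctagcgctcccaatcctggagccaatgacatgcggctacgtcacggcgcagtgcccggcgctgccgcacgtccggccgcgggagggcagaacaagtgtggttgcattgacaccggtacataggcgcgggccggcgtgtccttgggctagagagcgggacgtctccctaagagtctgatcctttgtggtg
Sdha: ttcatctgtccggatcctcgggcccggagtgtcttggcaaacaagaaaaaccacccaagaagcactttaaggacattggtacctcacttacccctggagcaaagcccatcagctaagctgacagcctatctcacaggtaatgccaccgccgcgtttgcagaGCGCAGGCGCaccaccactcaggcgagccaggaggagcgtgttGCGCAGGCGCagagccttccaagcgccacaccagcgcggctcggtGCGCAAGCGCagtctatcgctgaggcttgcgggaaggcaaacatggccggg
The windows lie at chr9:1637364-1637663 (plus strand) for Ndufa11, chr10:38089929-38090228 (minus) for Uqcrq, chr12:14535185-14535484 (plus) for Atp5mf, chr4:80984718-80985017 (minus) for Cycs and chr1:30764303-30764602 (plus) for Sdha. Ndufa11 held 2 overlapping NRF1 matches whose first bases lie 97 and 91 bases before the start, and both read the same on either strand. Uqcrq held a GABP match beginning 22 bases before the start, and Atp5mf a YY1 match beginning 36 bases after it. Sdha, which was not called, held 3 NRF1 matches, and the Cycs window held none of these letters.

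Of the 95 nuclear members, 82 had a promoter in the table. The NRF1 motif was found in 15 of them (18.3%), the GABP motif in 8 (9.76%) and the YY1 motif in 10 (12.2%). Over all 33469 promoter windows the shares were 4.25%, 3.81% and 1.73%, and over the windows of genes tested by edgeR they were 8.43%, 6.93% and 3.14%. At least 1 of the motifs was present in 13 of 31 members called higher (41.9%) and 19 of 49 tested members not called (38.8%). A match of this kind is only a run of letters, not a bound site.

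The mitochondrial genome encodes 13 proteins, and all 13 transcripts had positive log2 fold changes, with a median of 0.34. By edgeR 2 of 13 were called higher (15.4%), Mt-atp6 and Mt-nd6, near the 11.0% of all genes tested. The count lower was 0 (0 at an unadjusted p under 0.05, and 0 by DESeq2 or limma), where 9.45% of all genes were lower. DESeq2 called 5 higher (13.1% of all genes) and limma 0 (12.2%). The count of 2 became 0 without MCT 2, MCT 3, control 2 or control 3 (7.02%, 7.39%, 7.65% and 8.91% of all genes higher). It was 1 without MCT 1, control 1 or control 4 (11.5%, 9.51% and 8.11%), and 4 without MCT 4 (7.93%). It was also 0 with control 1 and MCT 1 both left out (10.8%). Levels were far above those of nuclear members: Mt-co1, the catalytic subunit of complex IV, was the highest on average, at 8174, 6730, 6230 and 6074 FPKM in MCT, against 5168, 5027, 5490 and 6321 in control (0.31, SE 0.13, adjusted p = 0.132). Control 4 lay within the MCT range. Since the libraries were selected for poly(A) tails and mitochondrial tails are short, levels of the 2 genomes may not be captured alike, which was not tested.

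The order of the libraries was shared by most mitochondrial genes. MCT 1 was highest of all 8 libraries for 12 of the 13 genes, and in summed FPKM control 4 ranked above MCT 4. The mRNA of these genes took 4.49%, 4.09%, 3.80% and 3.15% of all counts in MCT 1 to MCT 4, against 2.87%, 2.86%, 2.80% and 3.44% in control 1 to control 4. The nuclear members took 0.780%, 0.791%, 0.819% and 0.809% of counts in MCT, against 0.746%, 0.672%, 0.666% and 0.659% in control. The nuclear shares thus did not overlap between the groups, while the mitochondrial share of control 4 exceeded that of MCT 4. Without Mt-atp6, described below, the mitochondrial shares were 4.34%, 3.57%, 3.33% and 3.06% in MCT, against 2.78%, 2.78%, 2.71% and 3.34% in control, so that control 4 then exceeded both MCT 3 and MCT 4. MCT 1 also had the highest cardiac myocyte markers, of which 1 of 10 tested was called higher, and their part in its mitochondrial values was not tested.

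Mt-co2, which receives electrons from cytochrome c, was at 6907, 6276, 5374 and 4867 FPKM in MCT, against 4372, 3875, 4140 and 5049 in control (0.43, SE 0.13, adjusted p = 0.0520). Mt-co3 was at 7762, 5728, 5411 and 5418 FPKM in MCT, against 4729, 4673, 4558 and 5340 in control (0.34, SE 0.14), the groups just failing to overlap. Control 4 was the highest control library in both. Mt-cyb, the cytochrome b of complex III, was at 3888 ± 489 FPKM in MCT and 3343 ± 447 in control (0.22, SE 0.13). Among the complex I subunits, Mt-nd3 differed by 0.43 (SE 0.14, adjusted p = 0.0526) with no overlap, Mt-nd5 by 0.43 (SE 0.17), Mt-nd4l by 0.37 (SE 0.17) and Mt-nd2 by 0.32 (SE 0.17). Mt-nd1 and Mt-nd4 differed by 0.17 (SE 0.12) and 0.13 (SE 0.18). Mt-atp8, a small subunit of complex V, was at 5834 ± 486 FPKM in MCT and 4596 ± 650 in control (0.34, SE 0.11, adjusted p = 0.0637).

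Mt-atp6, the subunit that forms the proton path of complex V beside the c ring (ENSRNOG00000031979, MT:7919-8599), had the largest log2 fold change of all members and rested on 2 libraries. It was at 2130, 7454, 6658 and 1354 FPKM in MCT, against 1256, 1220, 1203 and 1419 in control, a log2 fold change of 1.78 (SE 0.51, adjusted p = 0.0429). MCT 2 and MCT 3 were far above all other libraries, while MCT 4 lay within the control range. The gene shares 43 bases with Mt-atp8 on the same strand, and the 2 proteins are read from 1 transcript. Even so, the ratio of Mt-atp6 to Mt-atp8 FPKM was 1.25 in MCT 2 and 1.15 in MCT 3, against 0.335 in MCT 1, 0.261 in MCT 4 and 0.258 to 0.316 in control. The call was lost without MCT 2 (1.40), MCT 3 (1.52) or any 1 control library (1.76 to 1.82).

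Mt-nd6 is the only protein gene on the other strand of the mitochondrial genome (ENSRNOG00000029042, MT:13543-14061). It was at 962, 747, 704 and 449 FPKM in MCT, against 444, 415, 427 and 495 in control (0.69, SE 0.20, adjusted p = 0.0395). In 3 MCT libraries it exceeded all control libraries, and MCT 4 was below control 4. The call was lost when any library except MCT 4 was left out, with log2 fold changes of 0.50 to 0.73. It overlaps Mt-nd5 by 23 bases on the opposite strand. The sources used here do not give whether the counting used strand, so reads from the light and heavy strand transcripts may not be told apart.

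**Figure D3:**
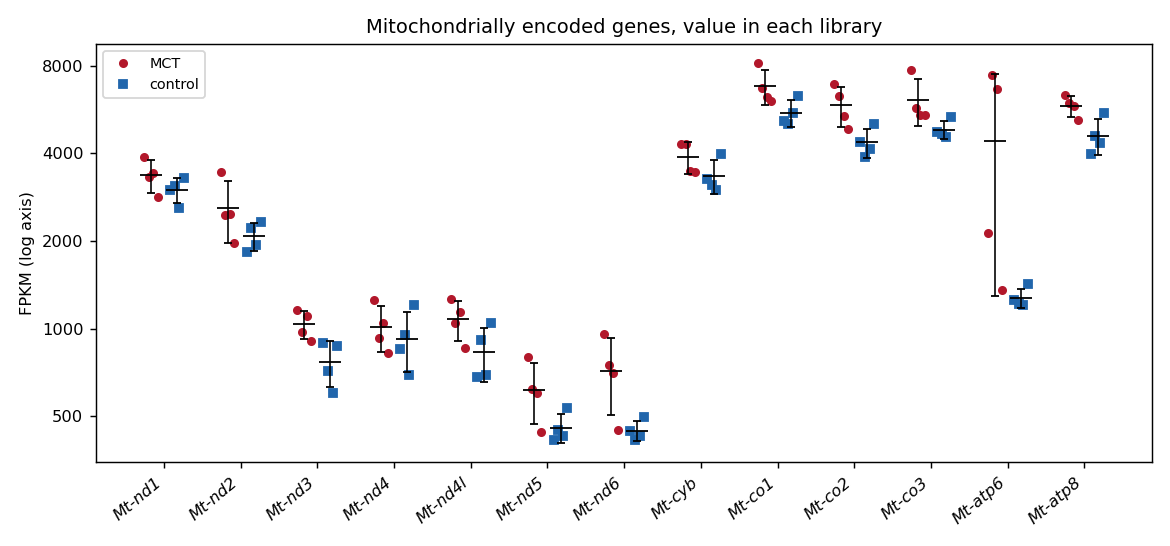
FPKM of the 13 mitochondrially encoded members in each library on a log axis, with MCT as circles left of control as squares, the mean as a bar and ± 1 SD as whiskers (n = 4 each). For Mt-atp6, MCT 2 and MCT 3 stand at 7454 and 6658 FPKM, far above the other 6 libraries, while for most other genes the groups overlap.

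Respiratory chain transcripts are short and abundant, and fold changes in these libraries moved with transcript length. Over 92 tested nuclear members the Spearman correlation of length with log2 fold change was -0.47, and over 15374 other protein-coding genes -0.21. These are descriptions across genes, which share the same 8 libraries. Among nuclear members under 500 bases 12 of 24 were called higher, against 24.0% of 183 other protein-coding genes of that length with a mean of at least 20 FPKM. From 500 to 1000 bases it was 17 of 33 members (51.5%), against 29.2% of 490 such genes. From 1000 to 2000 bases it was 5 of 27 (18.5%) against 21.2% of 1536, and at 2000 bases or more 2 of 8 against 236 of 1970. Over all other such genes under 1000 bases, 27.8% of 673 were called higher and 3.27% lower. Below 1000 bases the share called was thus larger among the members than among other abundant genes of the same length, and from 1000 to 2000 bases it was slightly smaller. The members themselves were not filtered on level, and no test between them and the other genes was made.

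With each library's trend of log2 level with length removed, 21 members were called higher and 2 lower, where 10.3% of all genes tested were called higher and 8.20% lower. Of the 21, 20 were among the 38, and the median log2 fold change of all members was 0.16. The new call was Atp5f1c of the complex V head, at 0.38 by edgeR (adjusted p = 0.00474). In the main fit it was at 0.18 (adjusted p = 0.0917). By complex 7 were higher in complex I, 0 in complex II, 1 in complex III (Uqcrq), 4 in complex IV and 8 in complex V, with 0 mitochondrial members. Cycs differed by 0.49, Cox7b by 0.56, Uqcrq by 0.57, Atp5mg by 0.49 and Ndufa2 by 0.52, all still called. Ndufb10, an accessory subunit of complex I, and Ndufs7 were the 2 called lower, at -0.24 and -0.34. The trend could come from the libraries or from the lung, which cannot be told apart here.

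**Figure D4:**
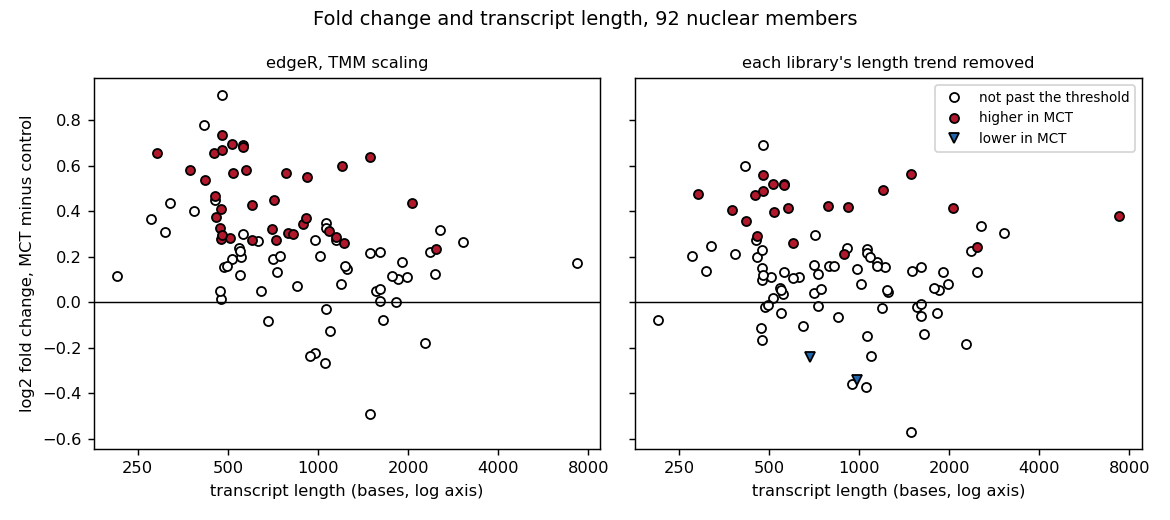
Log2 fold change (MCT minus control) of the 92 tested nuclear members against transcript length in bases on a log axis, from the edgeR fit on the left and with each library's length trend removed on the right. Filled circles were called higher and triangles lower. On the left the called members gather below 1000 bases (29 of 36), and on the right 21 members were called higher, 20 of them also called on the left, and 2 lower.

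Several subunits have a further gene used mainly in heart, skeletal muscle, lung or other particular tissues. The ratio of the restricted to the ubiquitous isoform needs no scaling between libraries, and 5 pairs could be tested. By a two-sided exact permutation test over 4 against 4 libraries, for which the smallest possible p is 0.0286, none of the 5 passed an adjusted p of 0.05. A single pair could not have passed after adjustment over 5, even with no overlap between the groups. Ndufa4l2, a relative of Ndufa4 known for its response to low oxygen, came closest: relative to Ndufa4 it was at 18.1%, 24.2%, 29.9% and 46.7% in MCT, against 54.6%, 50.4%, 46.2% and 49.6% in control (log2 difference -0.84, exact permutation p = 0.0571, adjusted over 5 pairs 0.286). MCT 4 lay within the control range. In its own level Ndufa4l2 was at 25.3, 26.9, 36.1 and 49.9 FPKM in MCT, against 51.9, 37.7, 36.3 and 36.5 in control (-0.24, SE 0.22), so the ratio combines this with the higher Ndufa4.

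Cox4i2, the isoform of Cox4i1 known from lung and vessels, was at 25.9, 23.5, 35.1 and 45.5 FPKM in MCT, against 59.2, 34.8, 26.3 and 35.7 in control, and its ratio to Cox4i1 differed by -0.39 (exact permutation p = 0.2). The groups overlapped widely. Pericyte markers, among which Cox4i2 itself is counted, summed to 110 to 154 FPKM in MCT and 145 to 199 in control, with 2 of 8 lower and 0 higher, and their part in its level was not tested. The muscle isoforms were low. Cox6a2 was at 16.2, 5.97, 2.69 and 3.42 FPKM in MCT, against 1.96, 2.72, 5.84 and 4.68 in control, and its ratio to Cox6a1 differed by 0.53 (exact permutation p = 0.543) and by -0.03 without MCT 1, the library with the highest cardiac markers. Cox8b relative to Cox8a differed by 0.28 (exact permutation p = 0.486), and Cox6b2, known from testis, relative to Cox6b1 by -0.17 (exact permutation p = 0.657). Single libraries moved both: Cox8b to Cox8a differed by 0.05 without MCT 1 and 0.11 without control 4, and Cox6b2 to Cox6b1 by 0.01 without MCT 2 and 0.02 without control 1, with the sign turned. Cox7a1, the muscle form of subunit 7a, was not paired, as no member has the symbol Cox7a2. The members of similar symbol, Cox7a2l and Cox7a2l2, were not tried as partners. In its own level Cox7a1 was at 4.77, 3.77, 4.56 and 4.57 FPKM in MCT, against 4.87, 6.98, 5.24 and 7.68 in control (-0.49, SE 0.19, adjusted p = 0.0956), with no overlap.

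**Figure D5:**
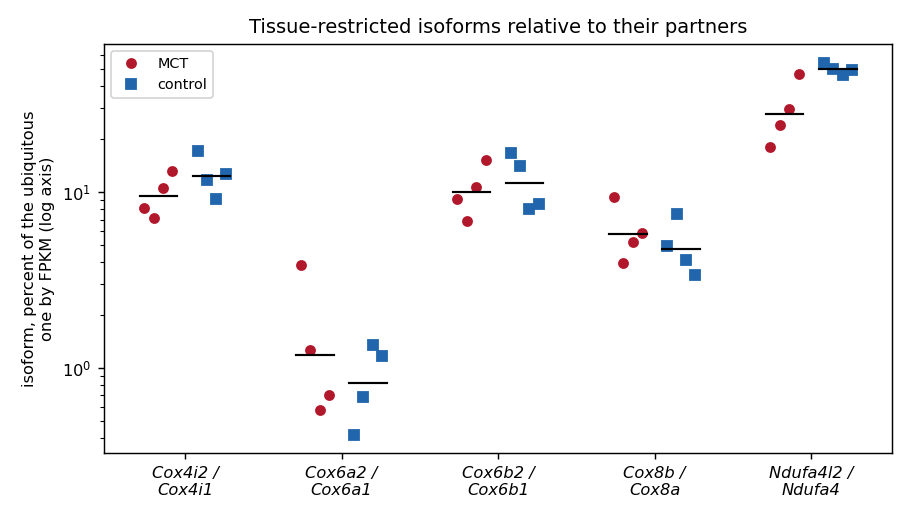
FPKM of a tissue-restricted isoform as a percent of its ubiquitous partner in each library, on a log axis, with MCT as circles left of control as squares and the geometric mean as a line (n = 4 each). Ndufa4l2 to Ndufa4 was lower in 3 MCT libraries and within the control range in MCT 4, and the other 4 pairs overlap between the groups.

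Of the 8 Ndufaf assembly factors of complex I, 0 were called in either direction by edgeR, DESeq2 or limma. At an unadjusted p under 0.05, 1 was higher and 0 lower. With 11.0% of all genes called higher and 9.45% lower by edgeR, 0 of 8 is near those shares. The median log2 fold change of these 8 was 0.20, against 0.22 for the nuclear core subunits. The levels of these factors were low beside the subunits, with group means of 4.50 to 26.4 FPKM in MCT and 4.14 to 19.3 in control. Ndufaf8, the most abundant, was at 31.2, 27.4, 24.0 and 23.1 FPKM in MCT, against 25.1, 18.1, 19.0 and 15.1 in control (0.45, SE 0.19, adjusted p = 0.123), with control 1 above the lower MCT libraries. Among assembly factors of the other complexes and further ones of complex I, 6 of 36 were higher (16.7%) and 0 lower (median 0.15). Higd1a, which associates with complex IV, was at 18.4 ± 0.648 FPKM in MCT and 12.5 ± 1.63 in control (0.55, SE 0.11), and Uqcc2, needed to make cytochrome b, at 33.6 ± 4.87 in MCT and 21.2 ± 3.20 in control (0.66, SE 0.15). The count was 2 without MCT 2, MCT 3 or control 2 (7.02% to 7.65% of all genes higher). It was 3 without MCT 4, control 1 or control 4 (7.93% to 9.51%), and 3 with the trend with transcript length removed (10.3%). At 2 or 3 of 36 the list is near the share of all genes.

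Mitochondrial ribosomes translate the mitochondrial mRNAs. Of 74 mitochondrial ribosome genes, 17 were higher (23.0%, against 11.0% of all genes tested) and 0 lower, with a median of 0.25. Mrpl17 was at 84.4 ± 6.16 FPKM in MCT and 62.1 ± 2.83 in control (0.44, SE 0.08, adjusted p = 0.00418), and Mrpl13 at 39.2 ± 2.18 in MCT and 29.1 ± 1.71 in control (0.43, SE 0.09). The ribosome count fell to 4 without MCT 2, 5 without MCT 3 and 6 without MCT 4, control 3 or control 4. It was 7 without control 2, and 8 with the trend with transcript length removed. Of all genes, 7.02% to 8.91% were higher without 1 of these libraries and 10.3% with the trend removed. Those counts of the 74 genes are near these shares. Of 19 genes of mitochondrial RNA processing, 2 were higher (10.5%, near the 11.0% of all genes) and 0 lower. Rexo2, an oligoribonuclease, was at 74.7 ± 4.98 FPKM in MCT and 48.8 ± 4.46 in control (0.61, SE 0.09). Slirp, which binds mitochondrial mRNA, was at 4.92 ± 0.662 in MCT and 3.15 ± 0.155 in control (0.64, SE 0.13).

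Of 23 genes listed for the copying and transcription of mitochondrial DNA, 1 was higher and 3 lower, with a median of -0.04. Over all genes 11.0% were higher and 9.45% lower. The list includes nucleotide carriers, which do not themselves copy or transcribe DNA. Slc25a33, a carrier of pyrimidine nucleotides into mitochondria, was at 11.6, 9.20, 9.64 and 13.0 FPKM in MCT, against 38.6, 26.3, 35.7 and 29.3 in control (-1.58, SE 0.16, adjusted p = 0.000485), with every MCT library below every control library. Polrmt, the mitochondrial RNA polymerase, was at 6.43 ± 0.707 FPKM in MCT and 8.19 ± 0.752 in control (-0.35, SE 0.11, adjusted p = 0.0452), a call lost without any library except MCT 4 or control 2, and with the length trend removed. Slc25a36, a related carrier, was lower by 0.64 and lost the call without 6 of the 8 libraries. Primpol, a primase and polymerase of nucleus and mitochondria, was higher at 1.62 ± 0.170 FPKM in MCT and 0.745 ± 0.222 in control (1.11, SE 0.28), without the call when MCT 2, MCT 3, MCT 4 or control 3 was left out. Tfam, which packs and transcribes mitochondrial DNA, differed by 0.06 (SE 0.09).

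Among 19 regulators of mitochondrial gene expression, 2 were higher (10.5%) and 3 lower, with a median of -0.20. Over all genes these shares were 11.0% and 9.45%. Ppargc1a, which encodes the coactivator PGC-1alpha, was at 0.20, 0.25, 0.23 and 0.18 FPKM in MCT, against 1.27, 0.88, 1.11 and 2.37 in control (-2.68, SE 0.36, adjusted p = 0.00142). All MCT libraries were below all control libraries at low levels in both groups. The nuclear receptor Ppard was lower (-0.48, SE 0.09), as was the coregulator Hcfc1 (-0.39, SE 0.09), and Myc was higher at 18.0 ± 1.11 FPKM in MCT and 12.4 ± 0.772 in control (0.54, SE 0.09). Nfe2l2, a regulator of antioxidant genes, was higher (0.28, SE 0.08). The call of Hcfc1 was lost without MCT 3 or control 2 and with the length trend removed, and that of Nfe2l2 without any library except MCT 4 or control 4. The genes of the factors whose motifs were searched did not pass edgeR's threshold: Nrf1 differed by -0.21 (SE 0.08, adjusted p = 0.0767), Gabpa by 0.48 (SE 0.18, adjusted p = 0.0964) and Yy1 by -0.11 (SE 0.11, adjusted p = 0.501). Nrf1 was called lower by DESeq2 (-0.22, adjusted p = 0.0461). Gabpa was called higher with the length trend removed (0.59, adjusted p = 0.0460) and without MCT 4 (0.59, adjusted p = 0.0484).

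In the tricarboxylic acid cycle, 2 of 17 genes were higher (11.8%, near the 11.0% of all genes) and 0 lower (median 0.12). Suclg1, a subunit of succinyl-CoA ligase, was at 45.0 ± 2.99 FPKM in MCT and 32.3 ± 1.45 in control (0.48, SE 0.07). Idh3a, of isocitrate dehydrogenase, was at 31.3 ± 1.71 in MCT and 25.5 ± 1.12 in control (0.30, SE 0.07). The call of Idh3a was lost without MCT 2 or control 2. Of 25 genes of mitochondrial protein import, 7 were higher and 0 lower (median 0.38), among them the outer membrane receptor Tomm20 at 98.3 ± 5.10 FPKM in MCT and 75.3 ± 3.37 in control (0.38, SE 0.07) and the small pore subunit Tomm7 at 138 ± 16.3 in MCT and 98.1 ± 11.0 in control (0.49, SE 0.11). The import count was 4 without MCT 2, MCT 4 or control 3 (7.02% to 8.91% of all genes higher). It was 3 without control 2 (7.65%) or with the length trend removed (10.3%). Of 8 ADP/ATP and uncoupling carriers 2 were higher and 0 lower, the exchangers Slc25a4 (0.46, SE 0.08) and Slc25a5 (0.39, SE 0.07), which carry ATP out of mitochondria. Of 17 genes that shape the inner membrane 2 were higher (11.8%, again near 11.0%) and 0 lower. They were Micos10 (0.49, SE 0.11) and Chchd3 (0.31, SE 0.08), both of the cristae-organising MICOS complex. The call of Chchd3 was lost without MCT 2, control 2 or control 3. By DESeq2 and limma 0 genes of the assembly, ribosome, RNA processing, tricarboxylic acid, import, carrier and inner membrane lists were lower, and at an unadjusted p under 0.05 only the inner membrane list had any (1). These lists, like the members, are to be read against the 11.0% of all genes that were higher and the 9.45% that were lower.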

How the data were processed

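RNA of whole rat lung was sequenced after oligo(dT) selection, per the labels' protocols, in 4 MCT and 4 control libraries. The submitters' processing notes name cutadapt 1.9, HISAT2 2.0.4, StringTie 1.3.4d, edgeR and the rat build Rnor_6.0, with no order or settings. The sources used here do not give the handling of strand and of reads that match several places. The deposited table, per the file headers, gives an estimated count and an FPKM for each gene in each library. The authors' estimated counts were whole numbers, so rounding changed none, and they fell on multiples of about 3.67 units per read pair, so totals were divided by 3.67 to give depth. The number of value columns without a library was 0. Transcript length was recovered as the ratio of count to FPKM, scaled on the 13 mitochondrial genes.

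The estimated counts were tested with edgeR 4.0.16 (R 4.3.3; filterByExpr with minimum count 10, TMM, robust quasi-likelihood, Benjamini-Hochberg over 16715 genes, two-sided). An SE is the absolute log2 fold change over the square root of F. Alternatives were DESeq2 1.42.0, limma 3.58.1 on log2(FPKM + a pseudocount of 0.1, 0.5 or 1), other scalings and filters, counts divided by 3.67, a replicate block, length trend removal, and libraries left out. Tests were tried on simulated data first. Isoform ratios were compared by exact permutation.

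The members and lists were chosen with earlier results of these data known. Where a symbol had several rows, which was so for 4 symbols, the row with the highest mean FPKM was kept. Atp5pb, whose biotype lists protein-coding beside others, was included (107 members without it). The rule for named genes took all mitochondrial members, the 2 called members with the smallest p per complex and direction (otherwise the most abundant), the isoform pairs, Cycs, Cyc1, the 5 most abundant members, and the 2 called genes with the smallest p of each other list. Other genes are examples chosen after their values were seen. Overlapping genes share reads in ways the table does not resolve. Cox6a1 shares 3054 bases of its span with Gatc on the same strand, and Uqcrb 475 with an annotated pseudogene. Ndufa2, Ndufa4, Atp5md, Atp5pf and Cox7b overlap genes on the other strand.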

Additional observations from a re-analysis of the deposited data

Results flagged for a closer look

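In 16 of 316 sets of 4 libraries, a single library stood off from the rest of its group: its gap to the nearest value, as a share of the group's range, passed Dixon's critical value for 4 samples. For genes the scale was log2(FPKM + 0.5). The sets were the 2 groups for 105 members, 51 other genes and 2 summary values, and chance gives about 1 in 20, or 15.8 here. MCT 1 was the library that lay apart for 5 members. For Atp5f1a it was at 184 FPKM against 216 to 218 (gap 0.952 of the range), for Sdhb at 98.3 against 120 to 124 (0.878) and for Atp5po at 104 against 114 to 116 (0.852). It was high for Mt-co3, at 7762 FPKM against 5411 to 5728 (0.842), and for Ndufab1, at 14.0 against 12.7 to 12.8 (0.917).

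In MCT 2, Ndufa1 was listed at 0 against 58.8 to 150 FPKM in the other MCT libraries (gap 0.837). In MCT 4, Uqcrfs1 was at 87.7 FPKM against 80.8 to 81.2 (0.941) and Nfe2l2 at 47.9 against 54.6 to 56.0 (0.837). Control 1 was high for Uqcrfs1, at 76.0 FPKM against 62.8 to 64.3 (0.876), for Ndufa4l2, at 51.9 against 36.3 to 37.7 (0.897), for Ndufv2, at 74.3 against 68.5 to 69.5 (0.830), and for Tomm20, at 80.3 against 73.5 to 73.7 (0.957). Control 4 was low for Pet100, at 18.6 FPKM against 21.1 to 21.5 (0.855), and for Mrpl54, at 44.7 against 55.8 to 58.1 (0.845).

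The share of counts from mitochondrial mRNA was 3.44% in control 4 against 2.80% to 2.87% in the other control libraries (gap 0.895 of the range). The summed FPKM of nuclear members was 9821 in MCT 3 against 9413 to 9449 in the other MCT libraries (0.910).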

How the results depend on the processing

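Under DESeq2, limma at each pseudocount, other scalings, other filters and counts divided by the spacing, 32 to 43 members were higher. This was within 1.5 times of the 38 of the main fit (11.0% of all genes). The share of all genes higher ran from 7.25% with no filter to 13.1% with DESeq2. The count of members was 21 with each library's length trend removed (10.3% of all genes), all of them nuclear (36 without this step). With 1 library left out it was 21 to 40 (nuclear 21 to 39), beside 7.02% to 11.5% of all genes. Members lower, all nuclear, were 0 except 1 with DESeq2 (12.2% of all genes lower) and 2 with the length trend removed (8.20%). The 2 mitochondrial calls became 5 with DESeq2, 0 with limma at each pseudocount, 1 with no filter, 4 with an FPKM of at least 1 in 4 libraries or with counts divided by the spacing, 0 with the length trend removed or with control 1 and MCT 1 both left out, and 0 to 4 with 1 library left out. With the length trend removed the counts were 7 in complex I, 0 in complex II, 1 in complex III and 4 in complex IV. Library sizes from nuclear genes gave 1 in complex II and 2 in complex III, and no filter gave 1 in complex II. With 1 library left out the counts were 8 to 16 in complex I, 0 to 3 in complex II, 1 to 3 in complex III, 4 to 8 in complex IV and 7 to 11 in complex V. The cause of these changes was not tested.

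Libraries of the same number deviated together with correlations of 0.11, 0.02, -0.02 and -0.08, not all over 0.1, so the numbers were not taken to pair samples. With the replicate number as a block, 26 members were higher (8.59% of all genes), all nuclear, with 0 mitochondrial calls, 0 in complex II and 1 in complex III. For 156 genes named or eligible to be named, 3275 alternative fold changes were computed: 2853 kept their side of the threshold, 371 lost it, 51 gained it and 0 called values changed sign. The isoform ratios had no call to lose, since a single pair could not pass in this design, so their lack of calls says nothing about stability. With 1 library left out the log2 difference was -1.09 to -0.63 for Ndufa4l2 to Ndufa4, -0.55 to -0.23 for Cox4i2 to Cox4i1, -0.03 to 0.88 for Cox6a2 to Cox6a1, 0.05 to 0.50 for Cox8b to Cox8a and -0.37 to 0.02 for Cox6b2 to Cox6b1. The smallest difference that edgeR called among the members, at this depth and number of libraries, was 0.23 on the log2 scale (Ndufs1).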

Other observations

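Symbols with several rows gave values that belong in no comparison above. The Ndufv3 row that was not used lies on chr13:51297295-51297621 and was at 2.25, 2.69, 2.48 and 2.74 FPKM in MCT, against 4.82, 5.57, 4.06 and 5.11 in control (-0.95, SE 0.29, edgeR adjusted p = 0.0471), with every MCT library below every control library. The Ndufv3 row that was used was at 56.9 ± 4.77 FPKM in MCT and 54.9 ± 1.67 in control (0.05, SE 0.07; SD, n = 4 each). The unused Cox6b1 row, on chr2:211337271-211337531, was at 21.9 ± 2.96 FPKM in MCT and 18.5 ± 1.57 in control (0.25, SE 0.17, adjusted p = 0.355). The split of reads between such copies is uncertain.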
